A study of Rattus norvegicus with 8 samples.

Results

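The genes described here are 6 regulators of transcription and chromatin, grouped here as responsive to signals at the surface of neurons: Elk1, Ets2, Atf2, Atf3, Ss18l1 and Hdac11. Whether they respond in that way in this tissue was not tested. They were taken as every probe that the authors list as changed and whose gene name, or whose current rat symbol through its gene ID, is one of the 6. All 6 were found among the 526 named genes of these lists, with 13 of the 582 listed probes and of the 15207 probes in the value table. Elk1 holds 8 of the 13 probes and the other genes hold 1 each. Ets2 was found through its gene ID, since the file gives its name with a suffix. The authors list 12 of the probes as higher in the treated rats, where 2.12% of all probes are listed, and 1, that of Atf3, as lower, where 1.71% are. The choice fixed these shares and nothing is read from them.

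The tissue was the whole medial prefrontal cortex (mPFC) of rats aged 6 months. The treated rats, called JFLX, had been given 10 mg/kg of fluoxetine, a serotonin reuptake inhibitor, from postnatal day 28 to day 48, and the control rats had been given a vehicle of 5% sucrose over those days. Each group had 4 arrays, and the labels give no strain, sex or genetic change. The free-text descriptions of 3 control samples speak of fluoxetine, but their titles and source names call them controls, and the grouping follows the titles.

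ETS proteins bind DNA through a shared domain, and Elk1 in particular sits with serum response factor at the promoters of immediate early genes, where phosphorylation by MAP kinases switches it on. Atf2 and Atf3 belong to the leucine zipper family that includes CREB. Atf2 is phosphorylated by the stress kinases JNK and p38, whereas Atf3 is itself induced by stress and injury and often acts as a repressor. Ss18l1, also called CREST, is a coactivator that responds to calcium and is needed for dendrite growth in mouse cortex, and Hdac11 is a histone deacetylase that is abundant in brain.

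The deposited values are log2 values centred probe by probe on the control median. A value therefore says how far an array lies from the control median of the same probe, and levels of different probes cannot be set against each other. In the authors' lists, which also give intensities, the median intensity over the 582 probes ran from 36.7 to 51.0 over the control columns and from 32.5 to 63.5 over the JFLX columns. The read-me sheet places all 8 arrays on 1 slide with the groups in separate position blocks, so that slide position and treatment cannot be told apart. Nothing says that the samples came from separate animals, and spreads are therefore spreads between these samples. Only listed probes carry gene names here, so that the tissue could not be checked against its defining markers beyond the few that are listed.

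The members were chosen by the authors' fold and p-value on the same 8 arrays, and all values of the treated against the control group below are a description with no test. The authors' rule asked for a mean log2 value in JFLX of at least 0.4 or at most -0.4, a p-value of at most 0.05, and a detected flag on at least 3 arrays of the group with the higher signal. In the authors' deposited table the p-value of the 12 higher member probes ran from 0.00109 to 0.0122, and that of Atf3 was 0.0437. The higher member nearest to the fold threshold was an Elk1 spot with a mean JFLX value of 0.54, followed by Hdac11 with 0.56.

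Elk1 was measured by a single sequence of 60 bases, spotted 8 times on each array. It is shown because all Elk1 values rest on it, and no base is set in capitals. The deposited table places it at chrX:12605361-12605420, with the coordinates in descending order, and the sources used here do not give the genome build of these positions.
Elk1 probe: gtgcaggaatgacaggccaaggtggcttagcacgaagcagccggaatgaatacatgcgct
Its GC content was 55%, against a median of 45.0% over the 548 sequences of the listed probes.

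Elk1 was higher on every JFLX array than on any control array. The mean of its 8 spots was 0.08, 0.12, -0.05 and -0.20 on control arrays 1 to 4. On JFLX arrays 1 to 4 it was 0.81, 0.95, 0.61 and 0.94. The groups did not overlap, and the gap between the highest control and the lowest JFLX array was 0.49. The group means were -0.02 ± 0.14 in control and 0.83 ± 0.16 in JFLX (SD, n = 4 each), a difference of 0.84 ± 0.11 (SE) on the log2 scale or 1.79-fold. In bulk tissue a change in the number of cells that carry a transcript cannot be told apart from a change of RNA per cell.

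The repeat spots show how far the listed Elk1 spots differed from one another. Each had passed the authors' fold and p-value thresholds on this contrast. Their separation and their range of differences therefore follow in part from the choice. The 8 spots gave differences between JFLX and control from 0.58 to 1.06, with a median of 0.86 and an SD of 0.14. In each of the 8 spots the lowest JFLX array exceeded the highest control array, by gaps of 0.20 to 0.50. That order was found at 10.0% of all probes. Within 1 array the SD over the 8 spots ran from 0.09 to 0.25 in the control group and from 0.14 to 0.47 in the JFLX group. Pooled over arrays it was 0.15 in control and 0.29 in JFLX, against an SD of 0.14 and 0.16 between the arrays of a group for the mean of the spots. The larger spread over spots in JFLX rests in part on array 1. Without it the pooled SD over spots was 0.19 in JFLX, still above the 0.15 of control. The SD between the JFLX array means was then 0.19 as well. Each spot was centred on its own control median before deposit, which removes constant offsets between the spots.

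The widest spread was on JFLX array 1. There spots 4 and 6 stood at 1.49 and 1.59, while the other 6 spots lay between 0.38 and 0.72. On the intensity scale, too, the coefficient of variation over the spots was 38.6% in the JFLX column that matches array 1 in file order. It was 5.0% to 20.7% in the control columns and 7.0% to 15.7% in the other JFLX columns. Without the 2 high spots, a setting chosen after seeing the data, the Elk1 difference was 0.81, and the SD over spots pooled over all 8 arrays was 0.16 in place of 0.23.

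The 8 Elk1 identifiers lie within a run of 10 consecutive numbers. The pair in between, numbers 104847 and 104850, is in neither list and has no gene name here. On the 4 JFLX arrays number 104847 stood at 0.56, 0.88, 0.74 and 1.11, and number 104850 at 0.47, 1.43, 0.84 and 1.32. On control array 3 they stood at 1.47 and 1.08, while their other control values lay between -0.15 and 0.07. Their differences between the groups were 0.49 and 0.77, beyond the authors' fold threshold, and 0.87 and 1.05 without control array 3. Galr2, with 5 listed spots over 8 consecutive numbers, was the other sequence whose listed identifiers had gaps, and the remaining 23 of the 25 listed sequences that were spotted more than once had adjacent identifiers. If the pair of unnamed probes is counted with the 8 spots, the Elk1 difference is 0.80.

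**Figure D1:**
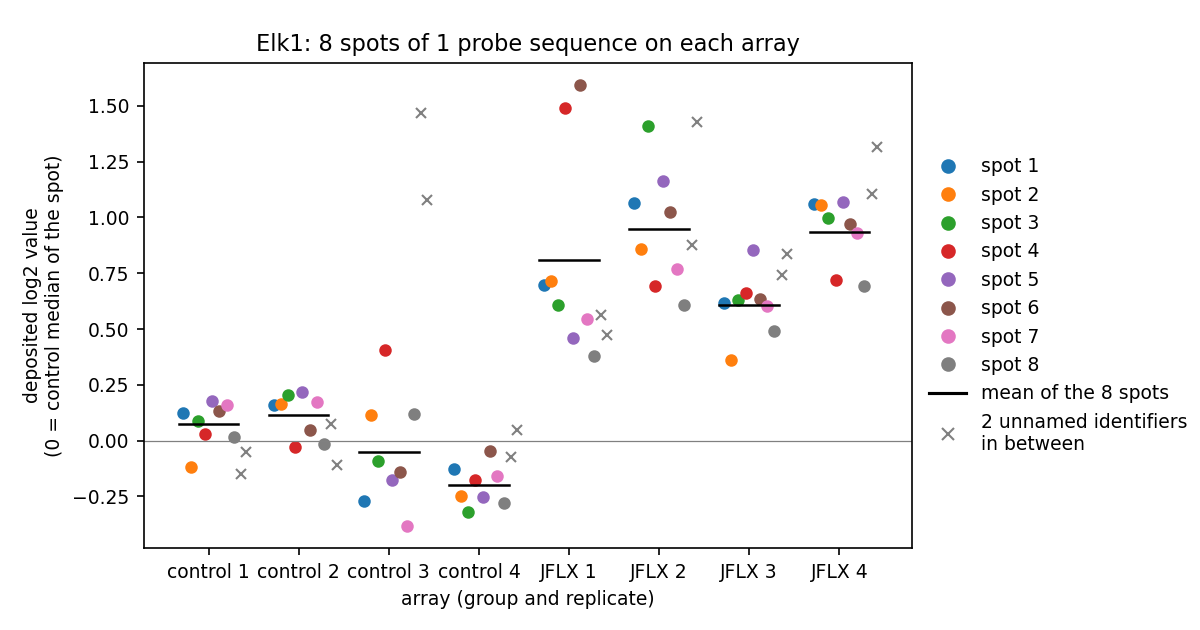
Deposited log2 values of the 8 Elk1 spots (coloured points) on each of the 4 control and 4 JFLX arrays, with the mean of the spots as a black line and the 2 unnamed probes with identifiers in between as grey crosses; 0 is the control median of each spot. All spot means in JFLX lie between 0.61 and 0.95, 2 spots stand at 1.49 and 1.59 on JFLX array 1, and both crosses stand above 1 on control array 3.

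Ets2, the other ETS factor, is a target of Ras and MAP kinase signalling. Its probe lies at chr11:36080832-36080891 in the positions of the deposited table.
Ets2 probe: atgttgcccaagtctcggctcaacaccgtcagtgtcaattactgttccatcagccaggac
Ets2 stood at -0.34, 0.22, 0.06 and -0.06 on control arrays 1 to 4. On the JFLX arrays it stood at 0.90, 0.74, 0.97 and 0.36. The groups did not overlap, but JFLX array 4 came within 0.15 of the highest control array, the smallest gap among the 5 higher genes. The means were -0.03 ± 0.23 in control and 0.74 ± 0.27 in JFLX (SD, n = 4 each), a difference of 0.77 ± 0.18 (SE) or 1.71-fold.

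Atf2 had the largest positive difference of the 6 genes. Its probe lies at chr3:56329042-56329101, again with coordinates in descending order.
Atf2 probe: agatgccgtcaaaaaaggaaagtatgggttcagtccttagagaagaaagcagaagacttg
Atf2 stood at -0.07, 0.07, 0.25 and -0.11 on control arrays 1 to 4. The JFLX arrays gave 1.11, 0.98, 1.23 and 0.55. JFLX array 4 was the lowest of its group for Atf2 as for Ets2, and still lay 0.30 above the highest control array. The means were 0.03 ± 0.16 in control and 0.97 ± 0.30 in JFLX (SD, n = 4 each), a difference of 0.93 ± 0.17 (SE) or 1.91-fold. The groups differed most for Atf2, but its SE and those of Elk1, Ets2 and Ss18l1 overlap, and no order among these 4 genes was tested.

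Atf3 was the member on the lower side, and its values rest on weak signals. The probe lies at chr13:107380795-107380853 and has a GC content of 36.7%, the lowest among the members. Atf3 stood at 1.24, 0.13, -0.40 and -0.13 on control arrays 1 to 4. On the JFLX arrays it stood at -0.99, -0.98, -0.33 and -0.86. The groups overlapped, since JFLX array 3 lay above control array 3. The probe carried the authors' detected flag on all 4 arrays of the control group but on 0 arrays of the JFLX group, so that the JFLX side has only a bound. Its intensities were 36.8, 19.2, 10.2 and 14.0 in the control columns and 7.88, 7.63, 13.1 and 4.83 in the JFLX columns, where the lowest signal of a listed probe detected throughout the group was 9.06 to 19.1 depending on the column. The bound for JFLX is the mean log2 of the higher of these signals and its own, plus the shift of 0.18 between the groups in the deposited values, which gives 4.03. Against it the control mean of 4.16 was at least 1.09-fold higher. This rests on 1 control column, since without the brightest one the control mean was 3.81, below the bound, and no fold can be given. In the control columns the lowest signal of a listed probe detected throughout the group was 5.11 to 6.97. The control signal of 10.2 was flagged as detected and the JFLX signal of 13.1 was not. The flags of the groups were thus not set at like signals, and their counts alone do not show a loss of transcript. The measured means were 0.21 ± 0.72 in control and -0.79 ± 0.31 in JFLX (SD, n = 4 each). Control array 1 carries much of this, because the difference of -1.0 became -0.66 without it.

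Ss18l1 belongs to the neuronal form of the BAF chromatin remodelling complex. Its probe of 60 bases is given an interval of 981 bases, chr3:169026525-169027505, so the interval holds bases that are not in the probe.
Ss18l1 probe: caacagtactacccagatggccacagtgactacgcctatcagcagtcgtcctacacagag
Ss18l1 stood at 0.33, -0.06, -0.17 and 0.06 on control arrays 1 to 4. The JFLX arrays gave 0.62, 0.55, 1.13 and 0.94. JFLX arrays 3 and 4 were the high ones, and the lowest JFLX array lay 0.22 above control array 1. The means were 0.04 ± 0.21 in control and 0.81 ± 0.27 in JFLX (SD, n = 4 each), a difference of 0.77 ± 0.17 (SE) or 1.70-fold.

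Hdac11 had the smallest difference among the 5 higher genes and the smallest spread in JFLX. Its probe, too, is given a longer interval, of 1011 bases at chr4:125580974-125581984.
Hdac11 probe: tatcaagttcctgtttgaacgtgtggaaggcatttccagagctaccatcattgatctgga
Hdac11 stood at -0.17, 0.09, -0.09 and 0.15 on control arrays 1 to 4. The JFLX arrays gave 0.43, 0.68, 0.65 and 0.48. The groups were separated by 0.28. The means were 0.00 ± 0.15 in control and 0.56 ± 0.12 in JFLX (SD, n = 4 each), a difference of 0.57 ± 0.10 (SE) or 1.48-fold.

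**Figure D2:**
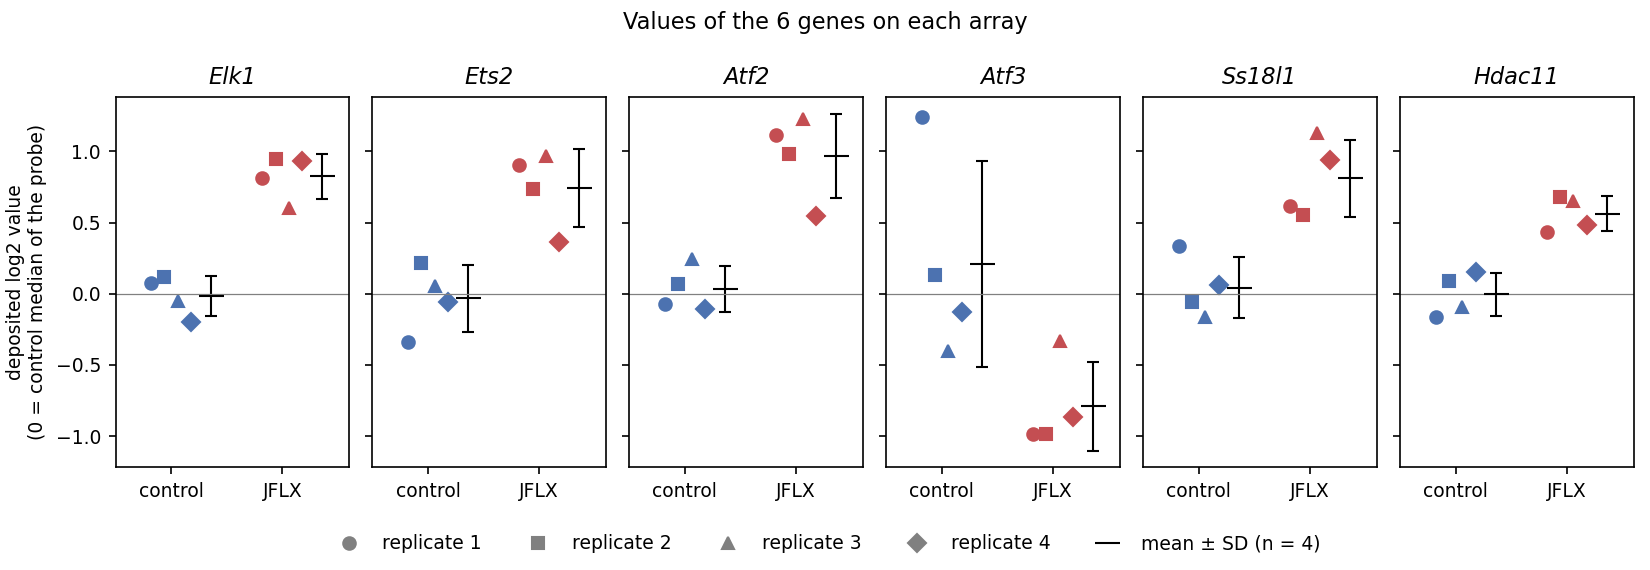
Deposited log2 value of each gene (Elk1 as the mean of its 8 spots) on the 4 control and 4 JFLX arrays, with symbols for the replicate and the mean ± SD beside each group; 0 is the control median of the probe. In Elk1, Ets2, Atf2, Ss18l1 and Hdac11 all JFLX points lie above all control points, and in Atf3 the groups overlap.

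The median difference was 0.77 over the 6 genes and over the 13 probes, 0.57 over the authors' higher list and 0.04 over all 15207 probes. A difference at least as large as that of Atf2 was found at 9.25% of all probes, as large as that of Elk1 at 10.1%, and as large as that of Hdac11 at 14.1%. Within the 322 probes of the higher list, 36 lay above Atf2, 59 above Elk1 and 162 above Hdac11. The shares over all probes include many probes that the authors do not list: of the 1406 probes with a difference at least that of Atf2, 37 are listed. A second peak of the distribution holds 547 probes with differences from 1.3 to 1.5, of which 5 are listed. Their medians on JFLX arrays 1 to 4 were 1.49, 1.14, 1.73 and 1.21. Detected flags and intensities of unlisted probes were not analysed here. In all 12 higher member probes the lowest JFLX array exceeded the highest control array, which was so at 10.0% of all probes. The reverse order, which Atf3 did not reach, was found at 2.95% of all probes. As the rule used this contrast, nothing is read from these counts.

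**Figure D3:**
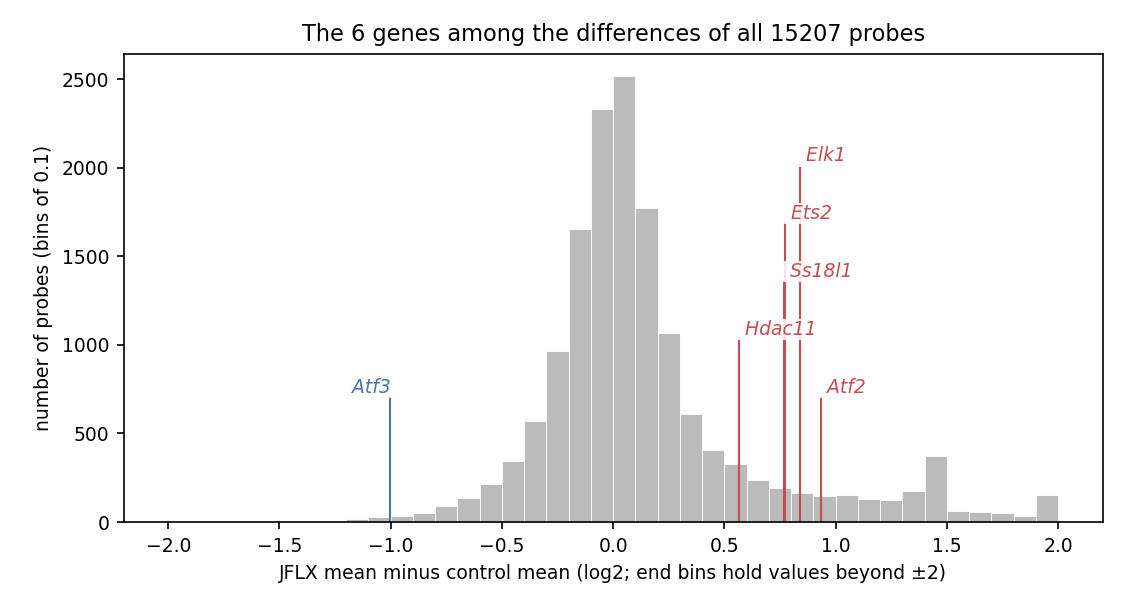
Histogram of the difference between the JFLX and control means (log2) over all 15207 probes in bins of 0.1, with the 6 genes marked by lines whose heights carry no meaning. The 5 higher genes lie between 0.57 and 0.93, below a second peak of 547 probes at 1.3 to 1.5; the last bin holds all 152 probes above 1.9. The line of Atf3 marks its measured difference of -1.0, although its JFLX side has only a bound.

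In the fit across all probes with limma, 6.25% of probes passed a Benjamini-Hochberg adjusted p of 0.05 (5.89% as higher and 0.355% as lower), and 11 of the 13 member probes did, all as higher. Of the 950 probes that passed 154 are listed, and 479 lie in the second peak. The 11 member probes that passed were 7 of the 8 Elk1 spots and the probes of Ets2, Atf2, Ss18l1 and Hdac11. The rule had selected the members on this contrast, so nothing is read from that count. In the authors' higher list as a whole 32.6% of probes passed, and in the lower list, where Atf3 did not, 18.8% passed. The count of 11 depended on single arrays: it was 5 without control array 1, 7 without control array 2, 3 without control array 3 or 4, 8 without JFLX array 1, 4 without JFLX array 2, and 5 without JFLX array 3 or 4. Atf2 passed in each of these 8 settings. With arrays centred on the 75th percentile 2 Elk1 spots passed, and Atf2 and the other members did not. With quantile normalization 0 member probes and 0 probes overall passed in limma, where 8 member probes had an unadjusted p under 0.05. With the 8 Elk1 spots averaged before the fit, 5 of the 6 genes passed, all but Atf3.

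The separation of the groups depended on the normalization between arrays. On the background-subtracted intensities the JFLX group overlapped the control group in all 12 higher member probes. In each of the 12 probes 1 JFLX column, the one with the lowest median intensity over the listed probes (32.5, against 57.3 to 63.5 in the others), was the lowest of its group, and it lay below every control column in 3 of them. The other 3 JFLX columns lay above all 4 control columns in all 12 probes. For Atf2 the intensities were 98.97, 123, 107 and 95.3 in the control columns and 226, 200, 259 and 86.0 in the JFLX columns. For Hdac11 they were 149, 201, 137 and 184 in the control columns and 227, 260, 280 and 133 in the JFLX columns. The lists do not say which replicate number a column belongs to. In file order, though, the columns can be matched. Apart from a shift per array and per probe, log2 intensities of the members follow the deposited values of arrays 1 to 4. The column with the lowest median is then that of JFLX array 4. That array was also the lowest of its group for Ets2 and Atf2 in the deposited values. On the group means the deposited values differ from log2 intensities by the same amount at every listed probe, -0.18 for JFLX minus control, so that the log2 intensity differences were 0.66 for Elk1, 0.59 for Ets2, 0.75 for Atf2, 0.59 for Ss18l1 and 0.38 for Hdac11.

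**Figure D4:**
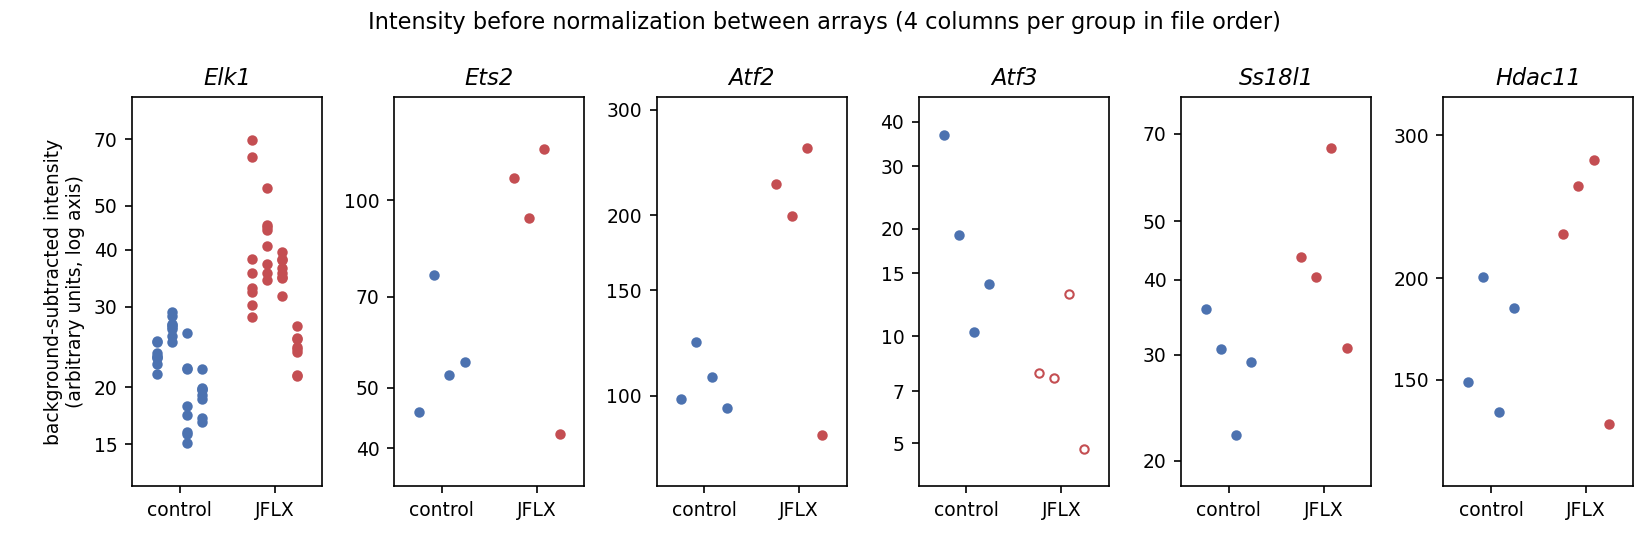
Background-subtracted intensity (arbitrary units, log axis, a scale of its own for each gene) in the 4 control and 4 JFLX columns of the authors' lists, in file order; Elk1 shows 8 spots per column, and open points mark Atf3 columns of the group with no detected flag. For each higher probe, taken spot by spot in Elk1, 3 JFLX columns lie above the control columns and the fourth falls back among or below them, as for Atf2 at 86.0.

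All 12 higher member probes were flagged as detected on all 4 arrays of both groups. Over all Elk1 spots the intensities were 15.1 to 29.3 in the control columns and 21.2 to 69.7 in the JFLX columns. The lowest signal of a listed probe detected on all control arrays was 5.11 to 6.97, depending on the column. For probes detected on all JFLX arrays it was 9.06 to 19.1 in the JFLX columns.

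The listed genes whose 8 values were most like those of a member were found by the mean absolute difference over the 8 arrays, among 525 other named genes. Nearest to Elk1 were Pfkfb2, a regulator of glycolysis, and Poldip3, each with a mean absolute difference of 0.08 (log2), and Kdm4a, a histone demethylase, with 0.09. Nearest to Ets2 were Phospho2 with 0.10, and the glycosyltransferase Mgat5b and the tetraspanin Tspan5 with 0.12 each. Atf2 had no neighbour as close, and its nearest were Nploc4, a cofactor of the ATPase p97, with 0.15, the corepressor Tle5 with 0.17 and the mitochondrial channel Vdac1 with 0.18. Nearest to Ss18l1 were the complexin Cplx1 and Arhgdia with 0.11 each and Diras1 with 0.12, and nearest to Hdac11 were the adhesion molecule Alcam and the metalloproteinase Mmp17 with 0.07 each and Lin7c with 0.08. For Atf3, Msn stood at 0.26 and Rabgap1 at 0.29. Among the members themselves, Ets2 and Atf2 were the closest pair with 0.19 and Elk1 and Hdac11 stood 0.23 apart. These likenesses are descriptions over 8 arrays of genes that share a direction through their selection.

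Of 254 genes in 8 lists of the same pathways, 10 are listed: the 6 members and 4 others. All 4 others are on the higher side, which holds 322 of the 582 listed probes. Of these 4, 3 passed in limma, where 32.6% of the probes of the higher list passed. With 4 genes nothing is read from these counts. Mapk8, the kinase JNK1 that phosphorylates Atf2 and Elk1, stood at -0.02 ± 0.18 in control and 0.60 ± 0.14 in JFLX (SD, n = 4 each), with no overlap, and passed. Kdm4a stood at 0.01 ± 0.18 and 0.73 ± 0.14, and passed. Chd3, the remodeller of a deacetylase complex, stood at -0.04 ± 0.17 and 1.06 ± 0.33, and passed. Camk2a, a calcium-dependent kinase of excitatory neurons, stood at 0.06 ± 0.15 and 0.62 ± 0.36, with overlapping groups, and did not pass. The median difference of these 4 genes was 0.67, against 0.57 over the probes of the higher list, and being listed already required a difference.

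By list, the counts were small. Of 43 immediate early genes and of 8 partners of the SRF and MEF2 families, 0 are listed. Of 26 ETS genes the listed ones are Elk1 and Ets2, and of 27 genes of the ATF and CREB family they are Atf2 and Atf3. Of 49 genes of the MAP kinase and calcium kinase routes 2 are listed, of 29 BAF complex genes 1, of 38 deacetylase and corepressor genes 2, and of 37 acetyltransferase, methylation and demethylation genes 1. Unlisted probes carry no names here, so the remaining genes of these lists were not analysed here.

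Cell type markers are listed on both sides of the same contrast, and their part in the members' values was not tested. Of 53 markers in 9 lists, 7 are listed. The astrocyte enzyme Glul was lower, at 0.00 ± 0.11 in control and -0.51 ± 0.15 in JFLX, and passed in limma. The excitatory neuron gene Neurod2 stood at -0.02 ± 0.14 and -0.48 ± 0.26, the interneuron potassium channel Kcnc1 at -0.06 ± 0.13 and 0.44 ± 0.22, and the endothelial Pecam1 at -0.18 ± 0.42 and 0.50 ± 0.35, none of which passed. The platelet gene Ppbp and the fibroblast gene Lum were listed as lower and were flagged as detected on 0 JFLX arrays. As given for Atf3, the lowest detected signals were higher in the JFLX columns than in the control columns. Ppbp passed with groups that did not overlap, and Lum did not pass. Camk2a, given above, is the other excitatory neuron marker listed. Of the markers of oligodendrocytes, their precursors and microglia 0 are listed.

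Promoters of RefSeq (assembly GRCr8), from 250 bases before to 50 bases after the gene start, were available for 4 of the 6 genes. They were searched on both strands for the CRE (TGACGTCA), its short form (TGACG), the AP-1 site (TGANTCA), an ETS site (CCGGAA), the E-box (CACGTG), the EGR site (GCGTGGGCG) and the CArG box of serum response factor. The short CRE form is part of the full CRE, and GGAA is part of the ETS site. The Elk1 and Ets2 promoters are shown because they held the 2 matches found, which are in capitals. The Elk1 window is chrX:3693115-3693414 on the plus strand, and the Ets2 window is chr11:48490807-48491106 on the plus strand. The Elk1 probe was given in descending order, and the genome build of the probe positions is not known here. Positions of probes and windows were therefore not compared.
Elk1 promoter: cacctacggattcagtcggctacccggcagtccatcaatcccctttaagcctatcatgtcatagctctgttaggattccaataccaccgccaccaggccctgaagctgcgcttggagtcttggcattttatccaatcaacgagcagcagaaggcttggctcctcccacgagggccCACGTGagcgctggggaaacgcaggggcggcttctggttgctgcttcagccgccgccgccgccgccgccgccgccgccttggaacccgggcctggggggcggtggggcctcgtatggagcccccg
Ets2 promoter: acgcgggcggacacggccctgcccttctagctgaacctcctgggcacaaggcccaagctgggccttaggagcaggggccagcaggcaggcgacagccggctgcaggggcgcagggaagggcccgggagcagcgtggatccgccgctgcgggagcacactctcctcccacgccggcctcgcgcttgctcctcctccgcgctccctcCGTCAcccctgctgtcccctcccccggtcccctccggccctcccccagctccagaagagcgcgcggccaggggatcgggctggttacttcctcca
The E-box of Elk1 lies 75 bases before the start and occurs in 7.02% of 21851 promoters of protein-coding genes. The short CRE form of Ets2, on the minus strand, begins 45 bases before the start, and this form occurs in 23.5% of promoters. The Atf2 and Ss18l1 windows held none of the 7 motifs. The ETS core GGAA, which occurs in 95.5% of promoters and is not in capitals, was found 7 times in Atf2, 3 times in Elk1, 2 times in Ets2 and 0 times in Ss18l1. The GC content of the 4 windows was 64.0% to 73.3%, against a median of 55%. A match or its absence in this window says nothing of binding.

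The differences kept their direction under the other settings tried. For the 5 higher genes, whose groups did not overlap, leaving out or weighting arrays could not have reversed that direction. The single Elk1 spots had each passed the authors' thresholds as higher. For Atf3 the JFLX side has only a bound. Leaving out 1 array at a time, the Elk1 difference ran from 0.78 to 0.91, that of Ets2 from 0.67 to 0.90, of Atf2 from 0.85 to 1.07, of Ss18l1 from 0.66 to 0.87 and of Hdac11 from 0.51 to 0.62. Apart from the single Elk1 spot with the lowest difference, 0.58, quantile normalization gave the smallest values for the 5 higher genes, with 0.60 for Elk1, 0.46 for Atf2 and 0.34 for Hdac11.

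**Figure D5:**
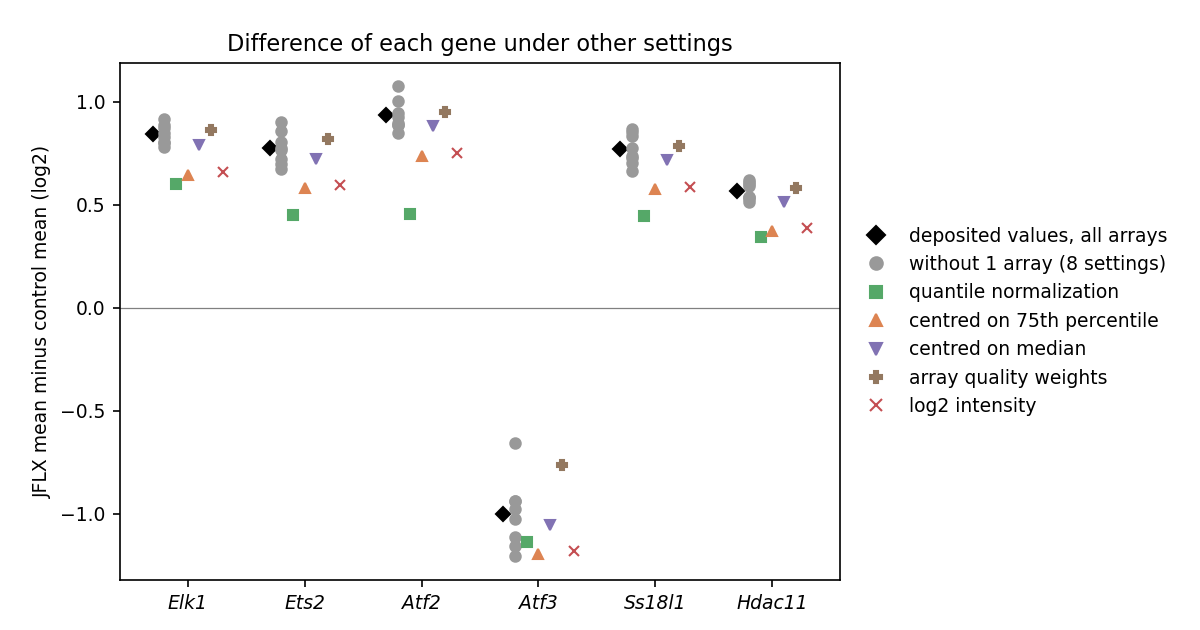
Difference between the JFLX and control means (log2) of each gene with the deposited values (black diamonds), without 1 array at a time (8 grey points), and with other normalizations, array weights or log2 intensity. All points of the 5 higher genes lie above 0 and all points of Atf3 below it, with the Atf3 value nearest to 0, -0.66, coming from the setting without control array 1.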

How the data were processed

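Total RNA of whole mPFC was labelled with Cy3 and hybridised to custom rat arrays from Agilent with 1 colour, per the labels' protocols. Log2 values of 15207 probes were deposited as the value table, with a control median of 0 at all 15207 probes. How arrays were normalized to each other is not stated in the sources used here. Per the file headers, the authors' lists give background-subtracted intensity per array, group means, counts of detected flags and a p-value from a volcano plot, with no test named. By name, intensity columns could be assigned to groups only, although the members' values follow arrays 1 to 4 of each group in file order. A further 32 per-array columns (folds, flags) were left aside. The read-me sheet counts 1 more probe in each list, not analysed here.

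The fit was limma's (version 3.58.1, R 4.3.3; lmFit, then eBayes with no trend) on all 8 arrays, two-sided, and p-values were adjusted over the 15207 probes by Benjamini-Hochberg, with a threshold of 0.05. It was tested on simulated data. SE of a difference is the root of the summed squared standard errors of the group means, after averaging repeat spots. Of the 582 listed probes, 551 were named through gene IDs in RefSeq's table for GRCr8, 10 kept a name that RefSeq knows, and 21 stayed unnamed. Members, gene lists, motifs and rules were chosen with earlier results of these data known. The rule for named genes took all members, the 3 listed genes most like each, and all listed genes of the pathway and marker lists; 1 gene that it named is not reported here. As alternatives, arrays were quantile-normalized or centred on their median or 75th percentile, and the fit was run with a trended robust eBayes, with array weights, with a replicate block, or replaced by an equal-variance test per probe. Averaged or single spots, log2 intensity, a difference of at least 1, detected probes alone, and leaving out each array were also tried. Python 3.11.15, pandas 2.3.3 and matplotlib 3.10.9 served for tables and plots.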

Additional observations from a re-analysis of the deposited data

Results flagged for a closer look

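Of 28 groups of 4 arrays tested with Dixon's test over the 13 member probes and the mean of the Elk1 spots, 1 held a value that stood apart, where chance gives about 1 in 20 groups, or 1.4. Elk1 spot 4 stood at 1.49 on JFLX array 1, while the other 3 JFLX arrays lay between 0.66 and 0.72, and the gap was 0.927 of the range. The mean of the 8 Elk1 spots on that array, 0.81, did not stand apart from the other JFLX arrays.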

How the results depend on the processing

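Of 83 alternative values of the 6 differences, 0 changed sign and 72 moved by less than the spread between arrays. Leaving out 1 of 4 arrays cannot move a difference by that much, so those values are among the 72 by construction. For the 5 higher genes, whose groups did not overlap, leaving out an array could not change the sign either. The 11 values that moved came from other settings. Quantile normalization gave 0.60 for Elk1, 0.45 for Ets2, 0.46 for Atf2, 0.45 for Ss18l1 and 0.34 for Hdac11. Centring on the 75th percentile, which shifts the median over all probes by -0.19, gave 0.65 for Elk1 and 0.37 for Hdac11, and log2 intensity gave 0.66 and 0.38. Quantile normalization and the 75th percentile were applied to values already centred on the control median, which can itself change the differences they give. Single Elk1 spots gave 0.58 to 1.06. Without 1 array at a time Atf3 ran from -1.21 to -0.66 and the pooled SD of the Elk1 spots from 0.17 to 0.24, against 0.23 with all arrays. The count of member probes past the limma threshold, 11, was 0 with quantile normalization, 2 with the 75th percentile and 3 with trend and robust. It was 5 with the per-probe equal-variance test, 5 genes with averaged spots, and 3 to 8 without 1 array. Apart from that threshold, 2 member probes had a difference of at least 1 in size. They were Elk1 spot 6 at 1.06 and Atf3 at -1.0, of which Atf3 did not pass in limma. With the replicate number as a block the count past the threshold was 3, and the count over all probes was 764. The numbers were not treated as pairing the samples in the main fit. Same-numbered arrays deviated with correlations of -0.04, 0.40, 0.12 and -0.28, and arrays did not all correlate best with their own number. Number 2 did, with -0.12 as its highest correlation with the other numbers. Deviations over the arrays of a group sum to 0, so these correlations constrain each other and cannot exclude a pairing. Over all probes 950 passed in limma (896 higher and 54 lower), 0 with quantile normalization, where 1298 had an unadjusted p under 0.05, 441 of the listed detected probes, which were selected by p and so pass by construction, and 780 to 907 without 1 array. With the 75th percentile the split was 682 higher and 221 lower. The cause of the other changes was not tested. Signals near the lowest detected ones limit Atf3, and 4 arrays a group limit the precision.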

Other observations

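The deposited annotation gives transcription factor activity to 15 listed genes, 11 on the higher side (Ets2, Atf2 and Ss18l1 among them), where 163 probes are annotated, and 4 on the lower side, where 118 are. The annotation is old and incomplete, and it leaves Elk1 and Atf3 without a function. It also covers Ripk4, a kinase by name, so that being annotated does not make a gene a transcription factor. Of the 8 others so annotated on the higher side, Mpped1 had the largest difference, at 0.00 ± 0.19 in control and 1.25 ± 0.12 in JFLX (SD, n = 4 each). It was the only one of these to pass in limma, and whether it is a transcription factor was not checked. Nr2f1, an orphan nuclear receptor of cortical area patterning, stood at 0.00 ± 0.20 in control and 0.59 ± 0.20 in JFLX, and Mycl at -0.02 ± 0.12 and 0.81 ± 0.58, neither past the limma threshold. Pou3f4 stood at 0.17 ± 0.44 and 0.86 ± 0.24 with overlapping groups. The 4 on the lower side, Pparg, Pcgf2, Rel and Ripk4, carried, like Atf3, the detected flag on 4 control and 0 JFLX arrays, and Ripk4 passed. The lowest detected signals were higher in the JFLX columns, so these flags alone do not show a loss of transcript. These genes were looked up after the members' values had been seen.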
